A study of Rattus norvegicus with 6 samples.

Results

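Genes of DNA repair and of the DNA damage checkpoint were followed in rats given 1,2-dibromoethane, in RNA of the renal cortex. The set holds 33 genes, taken by name from the known repair pathways, and a gene was followed through every array probe whose accession belongs to it. Of the 33 genes, 28 had such a probe, 46 probes in all, out of 15639 named genes on the array. Ercc4, Ercc5, Lig3, Msh6 and Rad52 were not analysed here. A further 2 genes, Brca1 and Chek1, had a probe but did not pass the filter on dim signals, which left 26 tested genes. To pass, a probe had to be well above background on every array of the control group, of the treated group, or of both.

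Each of the 2 groups held 3 male rats of the outbred Sprague-Dawley strain, 5 weeks old when purchased. The control group received corn oil for 4 weeks, and the treated group received 1,2-dibromoethane at 75 mg/kg/day for 4 weeks. Each animal's total RNA, labelled with Cy3, was read on 1 single-colour Agilent array. Only 1 dose, 1 time and 1 sex were sampled, and the renal cortex was measured as a whole, so that fewer cells of a type and less RNA per cell cannot be told apart. Levels below are log2 of the processed signal relative to the 75th percentile of the same array, and differences are treated minus control on that log2 scale. Of the 3 slides used, slide 1 carried dibromoethane replicate 2 with control replicates 1 and 2, slide 2 carried dibromoethane replicate 1 with control replicate 3, and slide 3 carried dibromoethane replicate 3 alone.

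1,2-Dibromoethane is a bifunctional halogenated alkane, once used as a soil fumigant. Its conjugate with glutathione forms a reactive episulfonium ion that alkylates guanine in DNA. Small alkylated or oxidised bases are removed by base excision repair: a glycosylase cuts out the base, an endonuclease opens the backbone, a polymerase fills the gap and a ligase seals it. Bulky adducts are cut out as a short strand by nucleotide excision repair, mispaired bases are handled by mismatch repair, and strands that are linked or broken call on the Fanconi anaemia proteins, homologous recombination and end joining. Much of the control of these systems acts on proteins already present, and some genes, such as Ddb2 and Xpc, are also known targets of p53.

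None of the 26 tested genes passed the test between treated and control animals (limma, adjusted p under 0.05 over all 28975 features), where 0.0311% of all features passed. The smallest adjusted p among them was 0.324 in limma, that of Chek2. At an unadjusted p under 0.05 in limma there were 3 of the 26 (11.5%), beside 11.1% of all features, so the share was near the background. These 3 were Fancd2, higher in treated animals (background 4.53%), and Brca2 and Chek2, lower (background 6.62%). Fancd2 passed the filter on dim signals only through the treated group, where it was higher, so its place among them is no support. With the filter on all 6 arrays, which leaves Fancd2 out, 2 of 25 genes were at an unadjusted p under 0.05 in limma, beside 11.4% of all features. The groups did not overlap for 8 of the 26 (30.8%), beside 19.5% of all features. Fancd2, Ddb1, Xpc and H2ax lay higher, 4 genes against a background of 7.37%, and Apex1, Mpg, Brca2 and Chek2 lower, 4 genes against 12.1%. Fancd2 is among these 8 only because the treated group let it pass the filter, so its place here is no support either. Apex1, Mpg, Ddb1, Xpc and Chek2 each had a second probe that passed the filter, and on that probe the groups overlapped. The median difference over the 26 genes was 0.0079, and that over all features was -0.02. Differences were positive for 14 of the 26, where 46.4% of all features were positive.

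The differences were also small in size. For 21 of the 26 the difference was under 0.2 in either direction, and the median size was 0.11, beside 0.12 over all features. The 95% interval of the difference lay within 0.5 of 0 for 22 of the 26 and within 1 of 0, that is within a 2-fold change either way, for 24. The exceptions to the wider limit were Fancd2 and Atm. The median SD between the 3 animals of a group was 0.08 for the 26 genes and 0.13 over all features. The 26 genes were also brighter, with a median level of 0.63 beside -0.61 over all features. The part of signal level in the smaller SD was not tested.

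**Figure D1:**
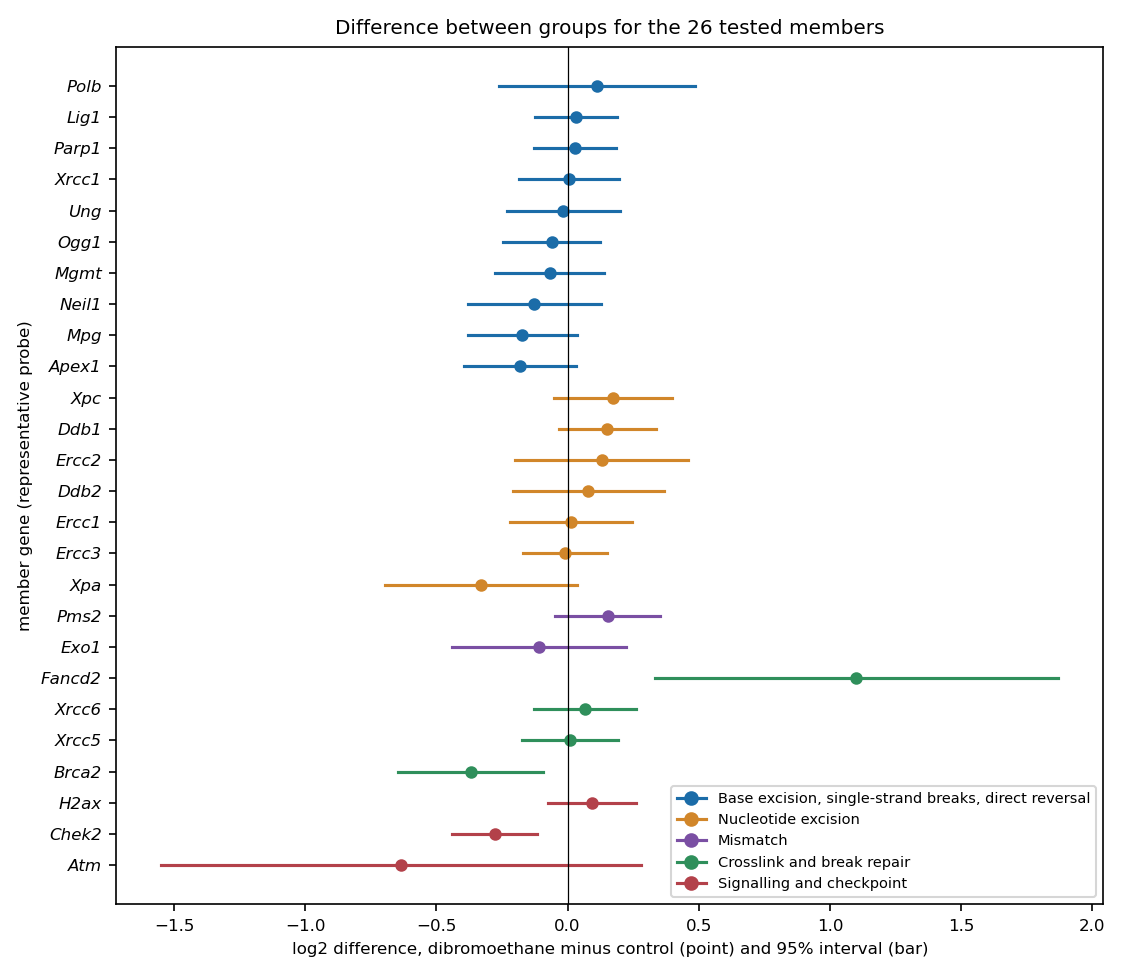
Difference in log2 level between 3 dibromoethane and 3 control arrays for each of the 26 tested genes, coloured by repair system; points are limma estimates and bars their 95% intervals. Most intervals cross 0, Fancd2 stands farthest to the right at 1.10, and Atm has the widest interval, from -1.55 to 0.28.

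Among the genes of crosslink and break repair, Fancd2 encodes the Fanconi anaemia protein that is monoubiquitinated when a replication fork meets a crosslink. Its log2 levels were -4.78, -5.10 and -3.86 on control arrays 1 to 3 and -3.32, -3.51 and -3.61 on dibromoethane arrays 1 to 3. All 3 treated arrays lay above all controls, and control replicate 3 was much nearer to them than the other two. The means were -4.58 ± 0.64 (SD, n = 3) and -3.48 ± 0.14 (SD, n = 3), and the difference did not pass (1.10, SE 0.31, limma adjusted p = 0.359). The single Fancd2 probe was dim: it was well above background on 2 of 3 control arrays and on all 3 treated ones, and so passed the filter only through the treated group. The level on control array 2 lay below that of every probe well above background there, the lowest of which was at -5.00, so the control mean is partly at background and no fold is given. The difference was 1.43 within slide 1 and 0.54 within slide 2, and 0.52 with normexp background correction.

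Brca2, which loads the recombinase onto broken ends and also belongs to the Fanconi anaemia pathway, lay the other way. Its log2 levels were -1.98, -1.66 and -1.81 in controls and -2.32, -2.15 and -2.08 in treated animals. No treated array reached the lowest control. The difference was -0.37 (SE 0.11, limma adjusted p = 0.365), -0.33 within slide 1 and -0.51 within slide 2. It was -0.20 with normexp. Another Brca2 probe was well above background on 1 array of each group and a further one on none, so that Brca2 rests on 1 probe.

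The promoters of Fancd2 and Brca2 are printed because these genes of the crosslink pathway lay at opposite sides of the set; Chek2, the other gene at an unadjusted p under 0.05, is named only. The sequences are RefSeq's, in the GRCr8 assembly, and cover the 250 bases before the annotated start, read 5′ to 3′ in the direction of the gene. Capitals mark the Sp1 box GGGCGG, the NF-Y box CCAAT or the cyclic AMP response element TGACGTCA on either strand. Fancd2 lies at chr4:148234458-148234707 on the plus strand and Brca2 at chr12:4895197-4895446 on the plus strand.
Fancd2: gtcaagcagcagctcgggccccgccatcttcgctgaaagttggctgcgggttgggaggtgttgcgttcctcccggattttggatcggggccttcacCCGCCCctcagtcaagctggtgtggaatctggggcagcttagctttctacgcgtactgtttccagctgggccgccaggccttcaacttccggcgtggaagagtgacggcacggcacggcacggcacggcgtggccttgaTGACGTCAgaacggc
Brca2: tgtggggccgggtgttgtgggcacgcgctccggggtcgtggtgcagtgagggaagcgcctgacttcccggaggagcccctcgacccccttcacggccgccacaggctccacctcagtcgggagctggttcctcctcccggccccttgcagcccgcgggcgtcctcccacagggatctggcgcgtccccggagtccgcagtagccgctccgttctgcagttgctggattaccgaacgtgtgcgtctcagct
The Fancd2 window holds 1 Sp1 box, on the other strand, and 1 cyclic AMP response element, with its first base at position -15 before the start. The Brca2 window holds none of these letters. Of 27456 promoters of this length, 32.39% hold the Sp1 box, 34.29% the NF-Y box and 1.70% the cyclic AMP response element. Of the 29 promoters of the 33 genes in the table, 18 hold the Sp1 box, 11 the NF-Y box and 1, that of Fancd2, the cyclic AMP response element. The E2F letters TTTCGCGC, or their variant TTTGGCGC, were in 0 of the 29 and in 0.67% of all. A match is a run of letters only.

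The end-joining genes Xrcc5 and Xrcc6, which encode the Ku subunits that cap broken ends, stood close to 0. Xrcc6 differed by 0.06 (SE 0.08), with an interval from -0.13 to 0.26. Xrcc5 differed by 0.0102 (SE 0.08), with an interval from -0.17 to 0.19, and a second, dimmer Xrcc5 probe gave 0.25. Brca1, a partner of Brca2 in recombination, had its 1 probe well above background on 0 of the 6 arrays.

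Of the damage signalling genes, Chek2 encodes the checkpoint kinase activated after strand breaks. The log2 levels of its brighter probe were -2.73, -2.75 and -2.81 in controls and -3.02, -3.02 and -3.08 in treated animals. The groups were tight and did not overlap, with SDs of 0.04 and 0.03, but the difference did not pass (-0.28, SE 0.07, limma adjusted p = 0.324; -0.15 with normexp). The difference was -0.28 within slide 1 and -0.21 within slide 2. The second Chek2 probe, also well above background on all 6 arrays, went the other way: -3.40, -3.49 and -3.67 in controls and -3.23, -3.15 and -3.47 in treated animals, a difference of 0.24 (SE 0.12). Averaged over both probes the Chek2 difference was -0.02.

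Atm, the kinase that senses double-strand breaks, is given here because of its wide spread, a choice made after its values were seen. Its log2 levels were -3.95, -3.63 and -2.47 in controls and -3.96, -4.07 and -3.91 in treated animals. One control array, replicate 3, stood apart from the other 5. The difference was -0.64 (SE 0.37, limma adjusted p = 0.556), -0.19 without control replicate 3, -0.35 with normexp and -0.32 with the mean of both probes. The other probe gave -0.0053. H2ax, the histone variant phosphorylated around breaks, had levels of -1.89, -1.88 and -1.95 in controls and -1.79, -1.87 and -1.78 in treated animals. The groups did not overlap, but by a narrow margin (difference 0.09, SE 0.07, limma adjusted p = 0.635; 0.06 with median centring). Within slide 1 the H2ax difference was 0.01, and within slide 2 it was 0.16. Chek1, the kinase of the replication checkpoint, was well above background on 2 arrays of each group and was not tested.

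**Figure D2:**
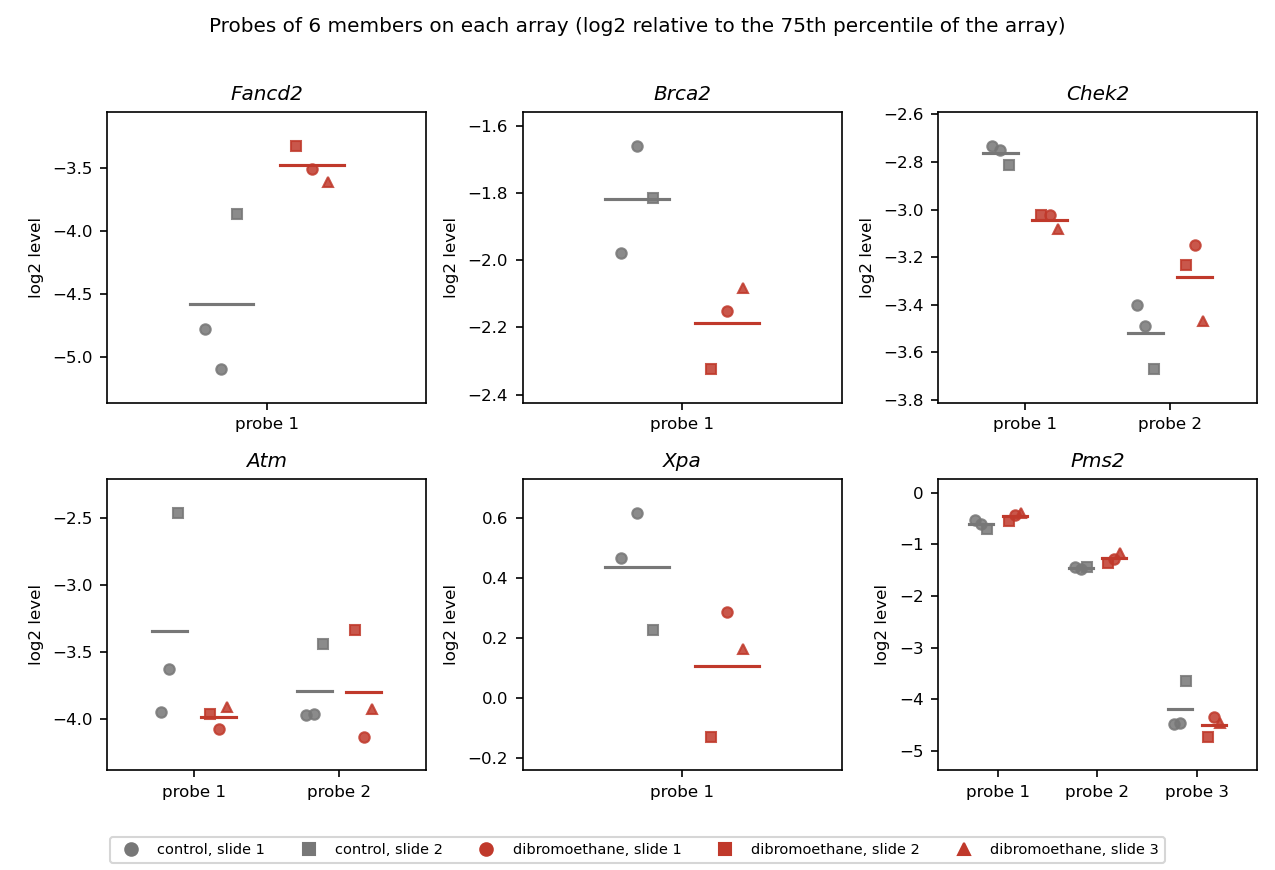
Log2 level of each probe that passed the filter for Fancd2, Brca2, Chek2, Atm, Xpa and Pms2 on every array; grey is control, red is dibromoethane, shapes mark slides and bars the mean of 3 arrays, with the vertical scale set per gene. Probes are numbered by signal. The Chek2 probes differ in direction, and control replicate 3 (grey square) is the highest control on the Fancd2 probe, on both Atm probes and on Pms2 probe 3.

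Base excision repair, single-strand break repair and direct reversal were measured through 10 genes, of which 0 passed, 4 were positive and 6 negative, with a median of -0.04. Apex1, the endonuclease that cuts at sites left without a base, had log2 levels of 5.20, 5.32 and 5.07 in controls and 4.96, 5.02 and 5.06 in treated animals. The highest treated array lay just below the lowest control, and the difference did not pass (-0.18, SE 0.09, limma adjusted p = 0.491). The second Apex1 probe gave -0.19. The difference was -0.10 with quantile normalization and -0.12 without control replicate 2.

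Mpg, the glycosylase that removes alkylated purines, had levels of 1.17, 1.40 and 1.21 in controls and 1.09, 1.12 and 1.06 in treated animals. Again the groups did not overlap, and control replicate 2 was the highest array (difference -0.17, SE 0.09, limma adjusted p = 0.497; -0.10 without control replicate 2). The second Mpg probe gave -0.08. The other glycosylases showed differences of -0.13 for Neil1 and -0.06 for Ogg1, which act on oxidised bases, and -0.02 for Ung, which removes uracil. A second Ogg1 probe gave 0.09. The Neil1 difference was -0.05 without control replicate 2 and -0.22 without control replicate 3, and it was -0.27 within slide 1 and 0.07 within slide 2.

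The later steps of base excision were measured through Polb, Xrcc1, Parp1 and Lig1. Polb, the gap-filling polymerase, had a difference of 0.11 (SE 0.15), and its value rested on dibromoethane replicate 1, at -0.82, while the other 5 arrays lay between -1.38 and -1.23. Without dibromoethane replicate 1 the Polb difference was -0.05. Xrcc1, the scaffold of single-strand break repair, differed by 0.0056 (interval -0.19 to 0.20), the break sensor Parp1 by 0.03 (interval -0.13 to 0.18) and the replicative ligase Lig1 by 0.03 (interval -0.12 to 0.19). The directions of Xrcc1, Parp1 and Lig1 turned with median centring. Mgmt, which takes alkyl groups off guanine in a single step, is given by array for that role, a choice made after its values were seen. It had levels of 2.25, 2.16 and 2.38 in controls and 2.24, 2.13 and 2.22 in treated animals. Its groups overlapped, at a difference of -0.07 (interval -0.28 to 0.14).

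Nucleotide excision repair was measured through 7 genes, with 5 positive, 2 negative, 0 past the threshold and a median of 0.08. The genes of damage recognition lay on the positive side. Xpc, which finds distorted DNA, had levels of 0.65, 0.36 and 0.55 in controls and 0.69, 0.69 and 0.70 in treated animals. The treated arrays were nearly equal and just above the highest control (difference 0.17, SE 0.09, limma adjusted p = 0.528; 0.09 without control replicate 2). The second Xpc probe gave 0.02, and the mean of both 0.10.

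Ddb1, a subunit of the ultraviolet damage sensor and of a ubiquitin ligase, had levels of 2.71, 2.61 and 2.55 in controls and 2.77, 2.73 and 2.82 in treated animals. The groups did not overlap, and the gap was narrow (difference 0.15, SE 0.08, limma adjusted p = 0.504). The second probe gave 0.09, with groups that overlapped. The difference of the brighter Ddb1 probe was 0.07 within slide 1 and 0.22 within slide 2. Its partner Ddb2 differed by 0.08 (SE 0.12), with dibromoethane replicate 2 at -1.77 and the other 5 arrays between -2.14 and -2.05; without that replicate the difference was -0.04.

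Xpa, which checks the lesion before incision, lay on the negative side. Its levels were 0.47, 0.62 and 0.23 in controls and -0.13, 0.29 and 0.16 in treated animals. Control replicate 3 lay inside the range of the treated arrays, so the groups overlapped, and dibromoethane replicate 1 was the lowest array (difference -0.33, SE 0.15, limma adjusted p = 0.473; -0.21 without dibromoethane replicate 1). Of the helicases of TFIIH that open the helix, Ercc2 differed by 0.13 (SE 0.14; 0.03 to 0.22 when 1 array was left out, 0.11 within slide 1 and -0.07 within slide 2) and Ercc3 by -0.0104 (interval -0.17 to 0.15). Ercc1, a subunit of the nuclease that cuts on one side of the lesion, differed by 0.0113 (interval -0.22 to 0.24), and its other probe gave 0.0136.

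**Figure D3:**
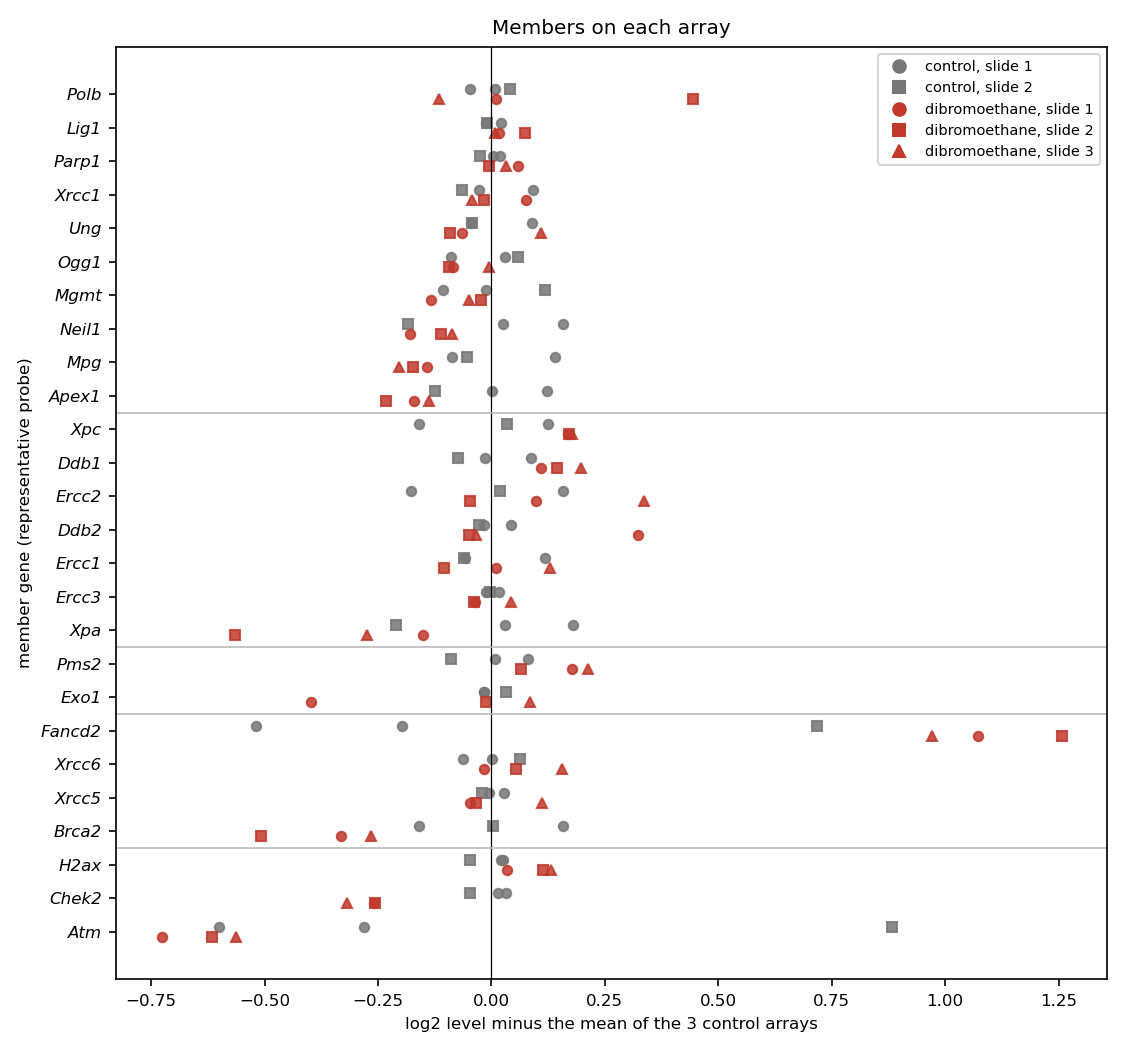
Log2 level of the representative probe of each of the 26 tested genes on every array, minus the mean of the 3 control arrays; grey is control, red is dibromoethane and shapes mark slides. Rows are ordered by repair system, from base excision at the top through nucleotide excision, mismatch, crosslink and break repair to signalling, and for most rows the red and grey points share the same narrow range around 0.

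Mismatch repair was measured through 2 genes. Pms2, a subunit of the MutL complex that nicks the strand to be repaired, had levels of -0.52, -0.60 and -0.69 in controls and -0.54, -0.43 and -0.39 in treated animals. Dibromoethane replicate 1 lay within the control range, so the groups overlapped (difference 0.15, SE 0.08, limma adjusted p = 0.530). Its second probe gave 0.18, with groups that did not overlap, and its dimmest probe gave -0.31, with control replicate 3 at -3.64 as the highest array; the mean of the 3 probes was 0.0080. Exo1, the exonuclease that removes the mismatched strand, differed by -0.11 (SE 0.14), and dibromoethane replicate 2 was its lowest array at -3.92. The second Exo1 probe gave -0.53, but it was well above background on all 3 control arrays and only 2 of 3 treated ones. It passed the filter only through the control group, where it was higher, so its value is no support. Its level on dibromoethane array 2, -5.84, lay below that of every probe well above background there, the lowest of which was at -4.65.

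Across the set, 15 genes had at least 2 probes that passed the filter. All probes of a gene gave the same sign for 11 of the 15, and the median distance between the probes of a gene was 0.10. A shared sign did not mean close values: the Atm probes lay 0.63 apart and the Exo1 probes 0.42. Exo1 counts among the 11 through a probe that passed the filter only through the control group. Of the 4 genes whose probes differed in sign, Chek2 and Pms2 differed by over 0.3, and Ogg1 and Xrcc6 by less.

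Other genes of the same pathways, not in the set, were counted from a list of 129 genes. Of these 102 had a probe and 93 were tested; 0 passed in limma, 9 stood at an unadjusted p under 0.05, of which 6 lay higher and 3 lower, and the median difference was -0.01. The 9 make 9.68% of the list, beside 11.1% of all features. In the base excision and single-strand break list the smallest p belonged to Parp3, a break-sensing relative of Parp1 (0.38, SE 0.12). Next came Aplf, an end-processing partner of Ku (0.37, SE 0.13). The crosslink and translesion list was led by Fancc, of the Fanconi anaemia core complex (0.19, SE 0.07), and Usp1, which removes ubiquitin from the Fancd2 protein (-0.21, SE 0.08). Recombination was led by Rad54l, a motor protein of strand exchange (0.25, SE 0.08), and Gen1, a nuclease that resolves crossed strands (0.88, SE 0.30).

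The signalling list held the largest difference among the 93, that of Plk3, a stress-responsive polo-like kinase (-1.06, SE 0.25, limma adjusted p = 0.318). Tipin, of the fork protection complex, had the next smallest p of that list (-0.18, SE 0.07). For mismatch repair the value was -0.12 (SE 0.06) for Pms1, for end joining the values were -0.16 (SE 0.08) for Xrcc4 and -0.29 (SE 0.17) for Dclre1c, and for nucleotide excision -0.16 (SE 0.07) for Gtf2h4 and -0.18 (SE 0.10) for Gtf2h3. In the nucleotide excision list 3 of 14 tested genes were positive and 11 negative, with a median of -0.07 and 0 at an unadjusted p under 0.05 in limma. Positive genes were 10 of 16 in the base excision list, 9 of 13 for mismatch and 7 of 13 for recombination. They were 6 of 15 for crosslink and translesion, 3 of 6 for end joining and 6 of 16 for signalling. Over all features 46.4% were positive.

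**Figure D4:**
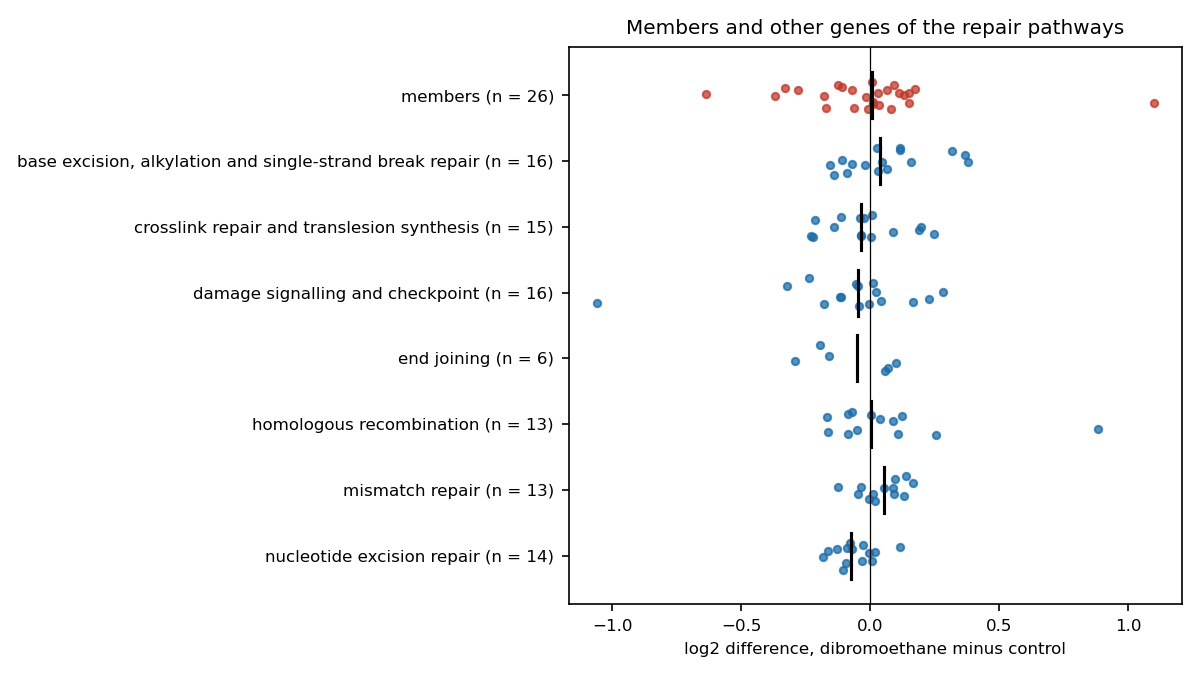
Log2 difference of each tested gene of the set (red, n = 26) and of 7 lists of other repair and checkpoint genes (blue, n = 6 to 16), with black bars at the medians; vertical scatter within a row only separates the points. All medians lie within 0.08 of 0, and the outlying points are Fancd2 at 1.10, Gen1 at 0.88, Atm at -0.64 and Plk3 at -1.06.

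Markers of cell types were read beside these values. Proximal tubule markers, 9 of 9, were well above background on all 6 arrays of this cortex tissue, and their summed level relative to the 75th percentile ran from 1543 to 1613 in controls and from 1444 to 1479 in treated animals. Genes of proliferating cells, some of which share S-phase expression with many repair genes, had 18 of 22 members tested. Of these 0 were called, 6 were positive and 12 negative. The summed level of this list ran from 15.2 to 17.5 in controls and from 15.2 to 15.9 in treated animals. Transcripts typical of liver had 10 members tested, 0 called, 8 positive and 2 negative, with a summed level of 7.92 to 13.3 in controls and 16.8 to 39.3 in treated animals and with Cps1 and Tat not well above background on any array. Blood cell markers summed to 545 to 611 in controls and 376 to 488 in treated animals. The part of these in the differences above was not tested.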

How the data were processed

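Renal cortex RNA of 6 rats, 3 per group, was measured on single-colour arrays; the labels describe separate animals. Spot intensity values were deposited as scanner tables made with Agilent Feature Extraction 10.7.1.1, per the file headers (10.7 in the submitters' processing notes), on a design that names genome build rn4. The deposited series table holds the processed intensity divided by each array's 75th percentile, on a linear scale without gene centring (r = 1.000 with the scanner values on the log2 scale on all 6 arrays; column medians 0.102, 0.103, 0.112, 0.110, 0.106 and 0.107 for controls 1 to 3 and dibromoethane 1 to 3).

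Of 62976 spots, 1439 control spots and 84 spike-in probes were left out, leaving 61453 probes, with 0 saturated and between 59.2% and 67.8% of them well above background on an array; 1 to 11 outlier spots per array were set to missing. Accessions without versions were matched to RefSeq genes of the assembly GRCr8, naming 28193 probes (45.9%). From the log2 of the processed signal, the 75th percentile of that array was subtracted. A gene was represented by its brightest probe that passed the filter. The test was limma's (version 3.58.1 in R 4.3.3, lmFit then eBayes, with 4 residual degrees of freedom and 2.04 prior ones), two-sided, with Benjamini-Hochberg adjustment over all 28975 features and a threshold of 0.05. The number of arrays limits the precision. The code was tested on simulated data.

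The genes and lists were chosen with earlier results of these data known. Values of all 6 arrays are given for genes at an unadjusted p under 0.05, with groups that do not overlap, or with the smallest p of their repair system, and for Atm and Mgmt; from each wider list the 2 genes with the smallest p are named, apart from 1 result that is not reported here. Probes of a gene that differ in sign by over 0.3 are named. Summed marker levels use the brightest probe of each gene. The cell type lists also covered podocyte, thick ascending limb, distal tubule with collecting duct, endothelium, macrophage, lymphocyte, adrenal and perirenal fat markers. In each of them 0 genes were called. The median differences were -0.09, -0.42, 0.08, -0.01, -0.03, -0.0035, -0.10 and -0.31. The adrenal value is that of the 1 gene tested of 5 listed, and the perirenal fat value rests on 3 tested genes. The alternatives covered normalization, background correction, the filter, probe choice, slide, scan date, replicate number, the variance model, the series table and single arrays left out. The median signal of a spot replaced its mean in normexp, since the scanner tables used here hold no mean signal.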

Additional observations from a re-analysis of the deposited data

How the results depend on the processing

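In each of the 20 alternatives limma called 0 of the genes of the set and 0 of the wider list at an adjusted p under 0.05. The count of genes in the set at an unadjusted p under 0.05 in limma was 1 to 5, beside 5.81% to 14.0% of all features. The smallest adjusted p that any gene of the set reached in an alternative was 0.139 in limma. Of 519 values of the 26 genes under these alternatives, 487 kept their sign and 32, of 11 genes, turned. None of the 11 was called in any fit. The 487 include values that could not turn. No filter on dim probes, the filter on all 6 arrays, each probe by itself and scan date as a fixed block left the differences of the main fit unchanged. So did the replicate block and trend and robust, and the series table gave nearly the same values. With the filter on all 6 arrays Fancd2 gave no value. Only slides with both groups is the same fit as slide as a fixed block, since dibromoethane replicate 3 is alone on its slide.

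Over all features the count of 9 called was 5 with median centring, 5 with normexp, 2 without a filter on dim probes, 2 with scan date as a fixed block, 17 with trend and robust, and 0 with slide as a fixed block and with only slides with both groups (limma had 3516 at an unadjusted p under 0.05, with 2 residual degrees of freedom). Leaving out 1 array gave 1 to 8. The 3 genes of the set at an unadjusted p under 0.05 in limma became 1 with normexp, beside 9.83% of all features. When 1 array was left out there were 2 to 5, beside 6.99% to 11.46% of all features. The 5 were without control replicate 3, beside 11.45% of all features in that fit. The median difference of the set, 0.0079, was -0.0265 with median centring, -0.0336 with slide as a fixed block and with only slides with both groups, and -0.0389 to 0.0271 when 1 array was left out. The cause was not tested.

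Both groups have replicate numbers 1 to 3 in the labels. The deviations of same-numbered arrays from their group means correlated at -0.19, 0.26 and 0.16 over the features. Arrays with different numbers were not compared, and replicate 2 of both groups was on slide 1, so these values cannot decide on pairing. The main fit took the arrays as unpaired. With the replicate block 0 features were called, and 3468 (12.0%) were at an unadjusted p under 0.05 in limma. In that fit 3 genes of the set had an unadjusted p under 0.05.

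Signs turned with median centring for Lig1 (-0.0014), Parp1 (-0.0059), Xrcc1 (-0.0288), Xrcc5 (-0.0241) and Ercc1 (-0.0231), with normexp for Ogg1 (0.0477), Parp1 (-0.0023), Ung (0.0770) and Xrcc1 (-0.0282), with a gene's probes averaged for Ogg1 (0.0120) and with quantile normalization for Ercc3 (0.0193). With slide as a fixed block, and with only slides with both groups, Xrcc5 (-0.0387) and Ercc1 (-0.0307) turned, and Xrcc5 (-0.0046) with slide as a random block. Leaving out 1 array gave -0.0533 to 0.2267 for Polb, -0.0785 to 0.0288 for Ung, -0.0299 to 0.0515 for Xrcc1, -0.0405 to 0.0393 for Xrcc5, -0.2052 to 0.0358 for Exo1, -0.0419 to 0.1441 for Ddb2, -0.0373 to 0.0037 for Ercc3 and -0.0474 to 0.0699 for Ercc1. Dim probes limit Fancd2, Atm, Exo1, Chek1 and Brca1.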
